A study of Ovis aries with 32 samples.

Results

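Genes of lipoprotein assembly were followed across 4 tissues of Tan sheep, a fat-tailed breed, on a diet with or without succinic acid. The set was chosen by name and holds 9 genes: MTTP, APOB, APOA1, APOA2, APOC3, APOE, APOH, LCAT and APOM. Earlier results of these data were known at that choice, so the p-values below are not an independent check. A row of that name stood in the table for 7 of the 9, among 30722 rows of which 17372 carried a gene name. APOA2 and APOM had no row under their names and were not analysed here. The 7 were found as MTTP (ENSOARG00020014036), APOB (ENSOARG00020018981), APOA1 (ENSOARG00020024796), APOC3 (ENSOARG00020024786), APOE (ENSOARG00020005776), APOH (ENSOARG00020009513) and LCAT (ENSOARG00020004421).

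All animals were male and aged 3 months at the start, with no genetic modification named in the labels, and 12 of 24 sheep were allotted to each diet. Controls (CON) ate a basal pellet, and the SA group ate that pellet with 1% succinic acid by dry matter, a metabolite of the citric acid cycle, for 60 days following 10 days of adaptation. RNA sequencing gave 4 libraries for each diet in liver, in tail fat, and in tissue labelled hypothalamus and pituitary, 32 in all. The sources do not say whether equal library numbers in different tissues mark 1 sheep, and every p-value measures only the spread between these libraries. In bulk tissue, fewer cells of a type and less RNA per cell cannot be told apart.

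Lipoproteins carry fat and cholesterol through the blood. In the endoplasmic reticulum of liver cells, the microsomal triglyceride transfer protein, of which MTTP is the large subunit and the chaperone P4HB the small one, loads lipid onto APOB, the structural protein of very low density lipoprotein. APOA1 builds high density lipoprotein and activates LCAT, which esterifies its cholesterol; APOC3 slows the breakdown of triglyceride-rich particles, APOE is their ligand for receptors, and APOH is a plasma glycoprotein that binds phospholipid.

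Values are TPM, a length-corrected share of each library's transcripts on a scale of 1000000 per library, so levels of different genes can be set side by side. TPM keeps no depth, so the depth behind each value is unknown. Differences were tested with limma on log2(TPM + 1) over all genes tested, and a gene was called at a Benjamini-Hochberg adjusted p under 0.05. A fold change on this scale understates the change of genes with low values.

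The libraries of the liver differed in makeup between the diets. Transcripts encoded in mitochondria held 20.2% to 27.8% of TPM in CON and 51.7% to 70.9% in SA. Over 15 hepatocyte markers with a row, of 16 listed, the summed level was 111300 to 119700 TPM in CON and 9694 to 32100 TPM in SA, and ALB, albumin, remained at 3933 TPM or more. Summed endothelial markers (9 of 9 with a row) ran from 211 to 311 TPM in CON and from 55.7 to 85.2 TPM in SA, and macrophage markers (10 of 12) from 519.8 to 1057 TPM and from 178 to 407 TPM. SELENOP, a hepatic selenoprotein, stood at 4282 to 5758 TPM in CON and 241 to 773 TPM in SA, while CCDC152 was listed at 0 in every CON liver and at 168 to 842 TPM in SA. None of these measures overlapped between the diets in liver, so what they contribute cannot be told apart from diet by the design. Tail fat held its defining markers, such as FABP4 and ADIPOQ. Of 10 hypothalamic markers 9 had a row, and their sum was 35.5 to 55.4 TPM in libraries labelled hypothalamus, mostly NPY (mean 35.9 TPM), against 10.0 to 40.0 TPM in those labelled pituitary; 4 of the 9 averaged under 1 TPM, among them AVP at 0.41 TPM. Of 9 anterior pituitary markers 6 had a row, and in libraries labelled pituitary they summed to 2.85 to 5.90 TPM, with PRL at 0.26 TPM on average and CGA and FSHB listed at 0. Both tissues are therefore called by their labels.

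On the control diet all 7 genes were higher in liver than in each of the other tissues, over 16 CON libraries. Across all 15929 genes tested, 23.3% were higher in liver than in tail fat, 16.7% than in hypothalamus-labelled and 14.8% than in pituitary-labelled libraries. The genes fell into 2 patterns: MTTP, APOB, APOC3 and APOH averaged under 7 TPM in every tissue but liver, whereas APOA1, APOE and LCAT also had sizeable levels elsewhere.

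MTTP averaged 36.5 ± 11.3 TPM in CON liver (SD, n = 4) and 0.60 ± 0.71, 0.15 ± 0.079 and 0.98 ± 0.67 TPM in tail fat, hypothalamus-labelled and pituitary-labelled libraries. APOB averaged 156 ± 52.9 TPM in CON liver and at most 0.45 TPM in another tissue. APOC3 was the most abundant of the 7 in liver, at 7344 ± 2504 TPM, and APOH followed APOA1 there with 3814 ± 468 TPM. The differences of these 4 genes between liver and another tissue ran from 4.26 (MTTP against pituitary-labelled, SE 0.30, limma adjusted p = 6.95e-10) to 12.77 (APOC3 against hypothalamus-labelled, SE 0.80, adjusted p = 3.81e-10) on the log2 scale. MTTP, APOB and APOC3 passed the filter of 1 TPM in at least 4 of the 16 CON libraries only through liver, where they are high. Their p-values are to be read with that limit. Outside liver, MTTP and APOH read low values in several libraries, up to 2.40 and 2.73 TPM in the pituitary-labelled ones. In tail fat 1 library stood apart, as CON library 4 held APOH at 26.91 TPM, APOC3 at 22.22 TPM and APOB at 1.50 TPM, with ALB at 473 TPM against 0.68 to 11.3 TPM in the other 7 tail fat libraries. Whether liver RNA in that library gave these values was not tested.

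APOE was present in all 4 tissues. Its CON means were 2373 ± 284.5 TPM in liver, 822 ± 62.6 TPM in pituitary-labelled, 545 ± 28.5 TPM in hypothalamus-labelled and 263.5 ± 82.3 TPM in tail fat libraries. No neighbours in that order overlapped, and the smallest liver difference of any of the 7 genes was that of APOE against the pituitary-labelled libraries, 1.52 (SE 0.22, limma adjusted p = 9.15e-06). LCAT followed another order, with 248 ± 54.7 TPM in liver, 70.2 ± 25.1 TPM in tail fat, 24.9 ± 3.23 TPM in pituitary-labelled and 9.14 ± 3.31 TPM in hypothalamus-labelled libraries, and again no neighbours overlapped. APOA1 averaged 3970 ± 268 TPM in CON liver, 116 ± 25.4 and 84.4 ± 27.5 TPM in pituitary- and hypothalamus-labelled libraries, which overlapped, and 15.0 ± 14.0 TPM in tail fat. Tail fat was therefore the lowest tissue for APOE and APOA1 and the second for LCAT.

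**Figure D1:**
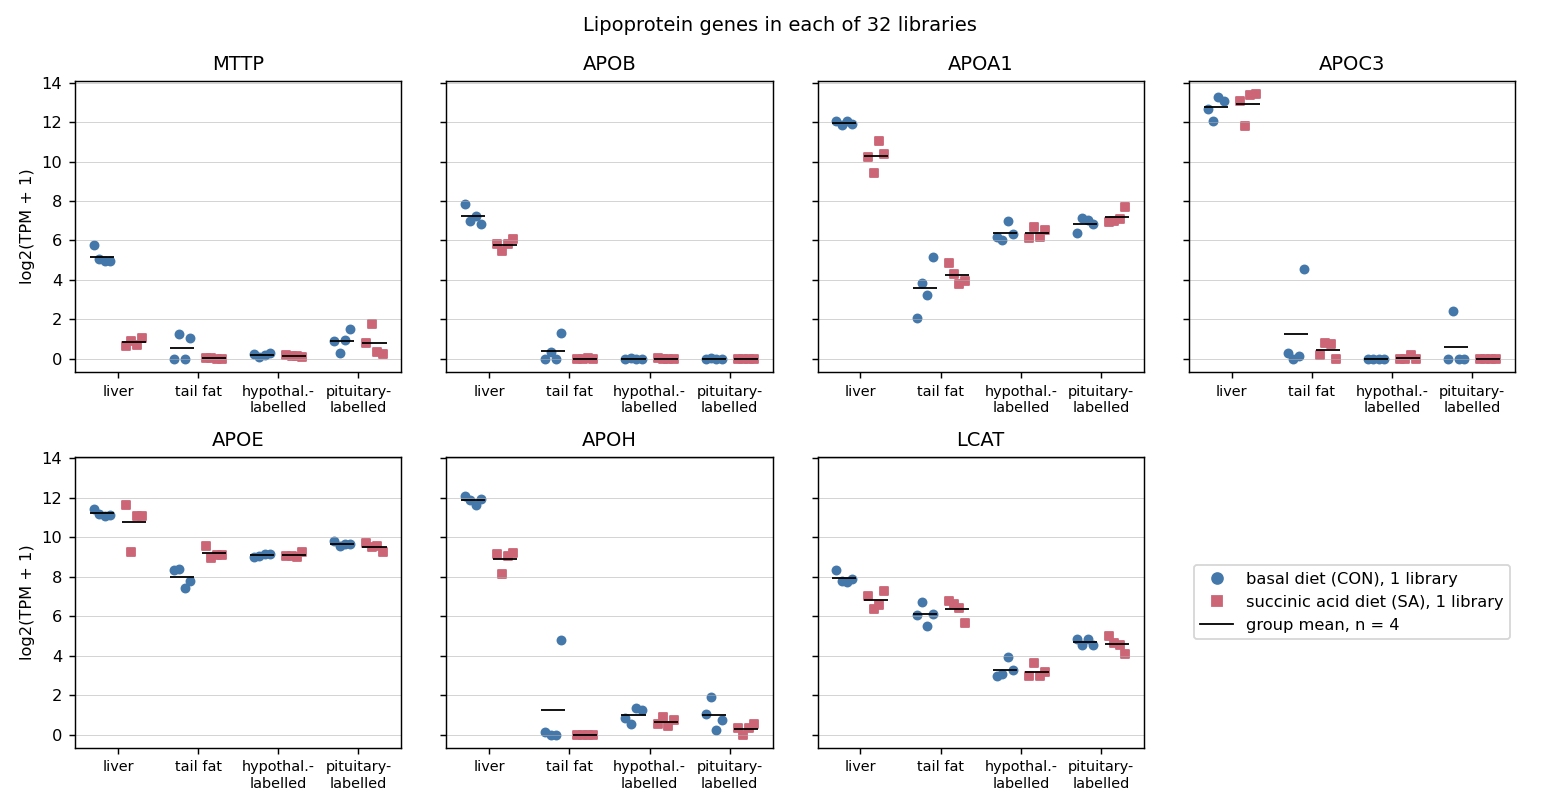
Level of each of the 7 genes on the log2(TPM + 1) axis in every library, by tissue and diet, with 1 point per library and 4 libraries per group. Outside liver, MTTP, APOB, APOC3 and APOH lie low except single libraries such as tail fat CON library 4 (APOH 26.91 TPM), APOE is present in all 4 tissues, and in liver the SA points of MTTP and APOH lie below the CON points.

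The diet comparison asked how these genes differed between SA and CON within a tissue. In liver 5 of the 7 were lower in SA (MTTP, APOH, APOA1, APOB and LCAT), and APOE and APOC3 did not pass. The background was high: 59.1% of the 11582 genes tested were called lower, and 54.2% had every SA library below every CON library. The median difference was −1.45 over the 7 genes and −0.83 over all genes tested. The count of 5 lower genes is therefore to be read against a general shift. Differences relative to that shift are given below for these 5 genes, and those of APOE and APOC3 lay above the all-gene median.

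MTTP, which transfers lipid onto the growing particle, had the largest difference of the 7. It was at 53.33, 32.50, 29.68 and 30.36 TPM in the CON livers and at 0.58, 0.88, 0.65 and 1.06 TPM in the SA livers. All 4 SA values lay far below the lowest CON value. The CON mean was 46.0 times the SA mean, and the difference was −4.35 on the log2(TPM + 1) scale (SE 0.22, 95% interval −4.85 to −3.85, limma adjusted p = 8.47e-06). Relative to the median gene it was −3.56 (adjusted p = 2.21e-05). The level in SA livers, 0.79 ± 0.22 TPM, was close to that in pituitary-labelled libraries on the same diet, 0.90 ± 1.03 TPM. Among SA livers only library 4, at 1.06 TPM, reached the 1 TPM of the filter. MTTP was thus tested through its CON livers, the group where it is high, and its p-values are to be read with that limit.

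APOB, the cargo protein that MTTP lipidates, had a smaller difference. Its CON livers read 231.38, 125.49, 151.69 and 114.02 TPM and its SA livers 55.78, 42.87, 54.74 and 65.21 TPM, without overlap. The difference was −1.45 (SE 0.29, 95% interval −2.11 to −0.80, limma adjusted p = 0.0019), and the CON mean was 2.85 times the SA mean. Relative to the median gene the difference was −0.66 and did not pass (adjusted p = 0.0753).

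The APOB transcripts per MTTP transcript, a ratio within a library that does not depend on how libraries are scaled, were 4.34, 3.86, 5.11 and 3.76 in CON livers. In SA livers they were 96.2, 48.7, 84.2 and 61.5. The lowest SA ratio was thus several times the highest CON ratio. The ratio was chosen after its values were seen and carries no test.

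Among the genes of high density lipoprotein, APOA1 stood at 4192.23, 3660.31, 4196.33 and 3832.02 TPM in CON livers and at 1188.79, 678.18, 2134.10 and 1355.65 TPM in SA livers. The groups did not overlap, and SA library 3 was nearest to CON. The difference was −1.68 (SE 0.38, 95% interval −2.52 to −0.84, limma adjusted p = 0.00339), and −0.89 relative to the median gene (adjusted p = 0.0677). LCAT, the enzyme that APOA1 activates, was at 327.84, 218.33, 207.80 and 238.10 TPM in CON and 129.07, 82.37, 92.47 and 151.96 TPM in SA. It too was lower in every SA library, with a difference of −1.13 (SE 0.30, 95% interval −1.80 to −0.47, limma adjusted p = 0.00767), which was −0.34 relative to the median gene (adjusted p = 0.319).

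APOH, the phospholipid-binding plasma protein, had the second largest difference. It was at 4323.74, 3779.48, 3199.36 and 3952.44 TPM in CON livers and at 567.92, 277.32, 529.89 and 578.97 TPM in SA livers. Every SA value was below every CON value, and SA library 2 was the lowest. The CON mean was 7.81 times the SA mean, the difference was −3.01 (SE 0.33, 95% interval −3.76 to −2.27, limma adjusted p = 9.09e-05), and it was −2.22 relative to the median gene (adjusted p = 5.69e-04).

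APOC3, which slows triglyceride breakdown, did not follow the other liver genes. Its values were 6490.01, 4271.21, 9990.46 and 8622.69 TPM in CON and 8700.75, 3606.32, 10609.90 and 10887.17 TPM in SA. The groups overlapped, and library 2 was the lowest of each diet. The difference was 0.15 (SE 0.45, limma adjusted p = 0.785), with a 95% interval from −0.87 to 1.17, wide in both directions.

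APOE, the receptor ligand, was at 2789.19, 2305.34, 2154.13 and 2241.87 TPM in CON livers and at 3184.69, 605.68, 2136.03 and 2127.05 TPM in SA livers. SA library 1 was above all CON libraries and SA library 2 far below them. The difference was −0.46 (SE 0.49, 95% interval −1.55 to 0.64, limma adjusted p = 0.432), and 0.05 without SA library 2.

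APOC3 and APOA1 are neighbours, with APOA4 and APOA5, in the RefSeq gene order of the sheep assembly ARS-UI_Ramb_v3.0. APOC3 transcripts per APOA1 transcript were 1.55, 1.17, 2.38 and 2.25 in CON livers and 7.32, 5.32, 4.97 and 8.03 in SA livers, without overlap. Within the summed TPM of the 7 genes, APOC3 held 29.7% to 50.1% in CON and 62.9% to 71.8% in SA. Both were picked after their values were seen and are given as descriptions.

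**Figure D2:**
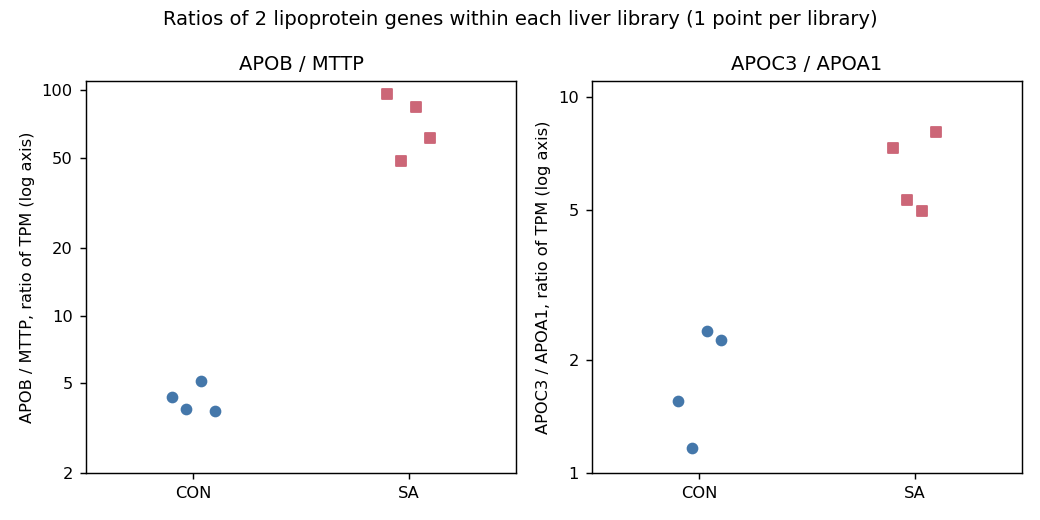
Ratios of TPM within each liver library, on log axes, for APOB over MTTP and for APOC3 over APOA1, with 1 point per library and 4 per diet. Both ratios are higher in every SA library than in every CON library, from 48.7 to 96.2 against 3.76 to 5.11 for APOB over MTTP.

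The scale on which libraries are compared changed some of these calls. Over all genes in liver, limma called 6842 lower and 603 higher on TPM as deposited, 2286 lower and 1949 higher relative to the median gene, and 1618 lower and 1830 higher with mitochondrial and ribosomal RNA removed. With mitochondrial and ribosomal RNA removed, MTTP remained at −3.89 (limma adjusted p = 5.55e-05) and APOH at −1.91 (adjusted p = 1.80e-04), APOB, APOA1 and LCAT no longer passed (−0.37, −0.58 and −0.04), and APOC3 was higher, at 1.25 (adjusted p = 0.0118). Under quantile normalization MTTP and APOH were the only genes of the set called, at −3.58 and −2.01. Setting the mean of 15 hepatocyte markers equal in all liver libraries shifted every gene by 2.74, since those markers averaged −2.74. This moves nearly all genes to above 0: 10496 of 11582 were called higher and 34 lower, and the median of all genes was 1.90. On that scale MTTP was still lower (−1.61, adjusted p = 3.28e-04), APOH did not pass (−0.28, adjusted p = 0.307), and APOB, APOA1, LCAT, APOE and APOC3 were called higher with most other genes (1.28, 1.06, 1.60, 2.28 and 2.89). Of these, APOB, APOA1 and LCAT lay below the all-gene median of that scale, as they did before the shift. Of the 15 markers, 6 (TF, F9, SERPINC1, FGB, PLG and CPS1) were already known to be lower in these livers, and without them the shift was −2.06, MTTP was at −2.29 and APOH at −0.96, both called. MTTP was thus called lower under each of these scalings, and the direction of APOB, APOA1, LCAT and APOE depended on the scaling.

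**Figure D3:**
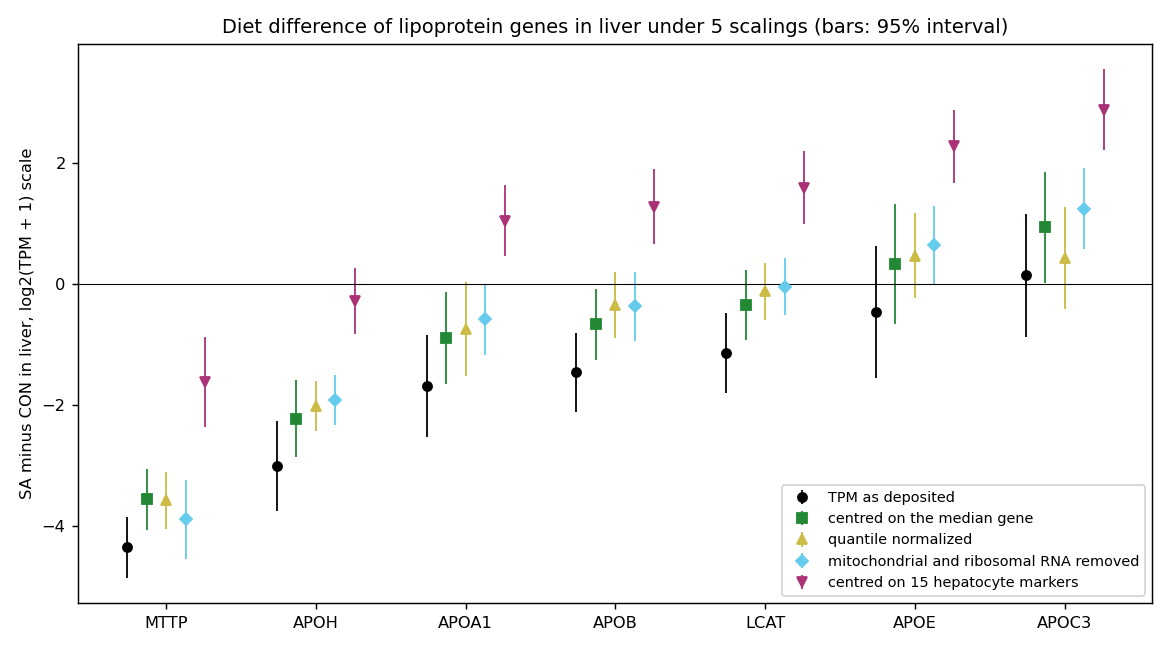
Diet difference (SA minus CON, log2(TPM + 1) scale) of the 7 genes in liver under 5 scalings, with 95% intervals from limma on 4 libraries per diet. MTTP lies below 0 under all 5, from −4.35 to −1.61, whereas APOB, APOA1 and LCAT cross from below to above 0 when libraries are centred on hepatocyte markers.

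Other genes of the pathway were read from 6 lists of 71 genes, of which 60 had a row, and their counts are to be read against the 59.1% of all genes called lower in liver. In the secretion machinery, which folds the particle and carries it out of the endoplasmic reticulum, 8 of 10 genes tested were lower in SA livers and none higher, with a median of −2.06. P4HB, the partner subunit of MTTP, averaged 1156 ± 185.6 TPM in CON and 189.9 ± 70.9 TPM in SA (−2.67, limma adjusted p = 1.64e-04). SAR1B, the small GTPase of the coat that buds large particles, averaged 72.5 ± 12.2 and 11.6 ± 3.82 TPM (−2.58). The protein disulfide isomerase PDIA3 was at −2.89 and the coat subunit SEC23A at −2.31.

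Of the other apolipoproteins and associated proteins, 4 of 5 were lower (median −1.98): PON3 (−2.39) and PON1 (−1.98), esterases of high density lipoprotein, APOA5 (−1.75), an activator of lipolysis, and APOD (−1.45). Of receptors, 3 of 7 were lower, a smaller share than over all genes (median −0.64), among them LRP1, a receptor that takes up remnant particles, at −2.69 with 44.3 ± 10.9 TPM in CON and 6.01 ± 1.51 TPM in SA. Lipases and lipid transfer genes split, with 3 of 9 lower, also a smaller share, and 1 higher (median −0.50). LIPG, the endothelial lipase, averaged 66.5 ± 30.2 TPM in CON and 1.46 ± 1.22 TPM in SA (−4.80, limma adjusted p = 5.21e-05), a difference of the size seen in MTTP. ANGPTL4 (−1.17) and LPL (−0.92) were lower, and ANGPTL8, which takes part in the inhibition of lipoprotein lipase, was higher, at 9.09 ± 3.93 and 50.1 ± 27.3 TPM (2.26, adjusted p = 0.00241). ANGPTL8 and APOC3 both act against triglyceride breakdown in textbook accounts.

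All 3 sterol exporters tested were lower (median −1.50): ABCA1, which lipidates APOA1, at −1.72, ABCG8 at −1.50 and ABCG5 at −0.63. Of the hepatic transcription regulators, 12 of 19 were lower and none higher (median −1.20), a share near the 59.1% of all genes, among them FOXO1, which is known to act on the MTTP promoter, at −2.39, CREB3L3 at −2.46, NR5A2 at −1.37 and NR2F2 at −1.30. HNF4A, a known activator of MTTP and APOB, was at −1.30 (limma adjusted p = 0.00615), while the liver factor FOXA2 (−0.01) did not pass; both were named for their role after their values were seen. Secretion machinery, other apolipoproteins, exporters and regulators had medians below the all-gene median of −0.83, and receptors and lipases above it. No gene of the 6 lists was called for diet in tail fat or in the libraries labelled hypothalamus and pituitary.

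The same lists were counted under the other scalings, an analysis added after the values were seen. Relative to the median gene, the secretion machinery was still lower in 7 of 10 genes and higher in none (median −1.27), with P4HB at −1.88 (limma adjusted p = 0.00172). Over all 11582 genes tested, 2286 were called lower and 1949 higher on that scale, and the list counts are to be read against these. The exporters had none called (median −0.70), the regulators 5 lower and 2 higher of 19 (median −0.41), the receptors 2 lower and 2 higher of 7 (median 0.15), the lipases 1 lower and 2 higher of 9 (median 0.29), and the other apolipoproteins 1 lower of 5 (median −1.19). HNF4A did not pass there (−0.51, adjusted p = 0.197). On the hepatocyte marker scale, where the median of all genes was 1.90, the medians were 0.68 for the secretion machinery, 0.76 for other apolipoproteins, 1.24 for exporters and 1.54 for regulators, all below it, and 2.09 for receptors and 2.24 for lipases, above it. That scale shifts every gene by the same amount. Which lists lie above or below the all-gene median was therefore fixed by the values before the shift and is no further result. P4HB was at 0.07 there and SAR1B at 0.15. LIPG was called lower and ANGPTL8 called higher under all 5 scalings, from −4.80 to −2.07 for LIPG and from 2.26 to 4.99 for ANGPTL8.

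**Figure D4:**
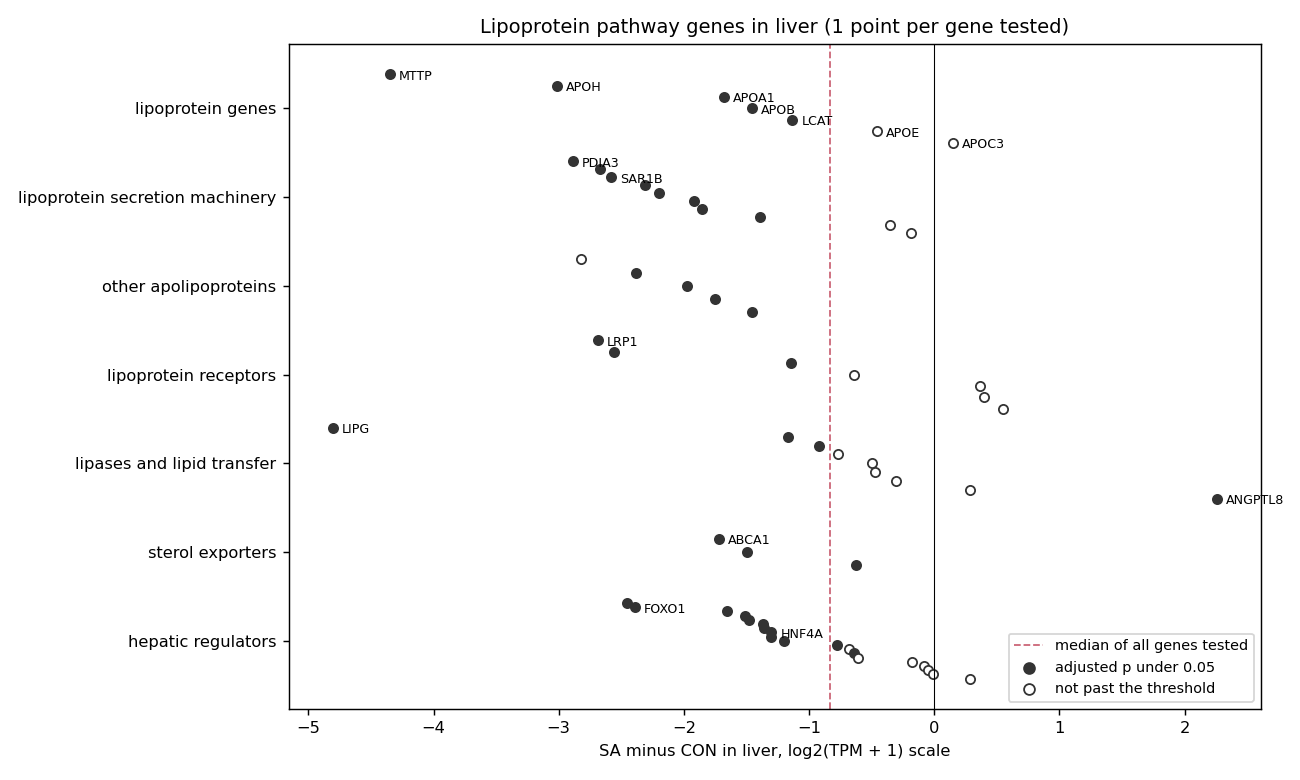
Diet difference in liver of every pathway gene tested, by list, on the log2(TPM + 1) scale, with filled points for adjusted p under 0.05 and a dashed line at the median of all genes, −0.83. MTTP and LIPG stand at the low end (−4.35 and −4.80), and ANGPTL8 (2.26) is the only filled point above 0.

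In tail fat 3 of the 7 genes passed the filter of 1 TPM in at least 4 of 8 libraries: APOE, APOA1 and LCAT. None was called, with 0.697% of 11185 genes called there, a count that ran from 8 without SA library 3 to 314 without CON library 2. APOE was at 327.70, 337.98, 171.37 and 216.83 TPM in CON and at 745.54, 498.69, 542.89 and 557.09 TPM in SA. Every SA library lay above every CON library, as for 4.63% of all genes tested, and the SA mean was 2.22 times the CON mean. The difference was 1.19 (SE 0.39, 95% interval 0.36 to 2.02), with an unadjusted p of 0.00771 and a limma adjusted p = 0.178.

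Of 9 other settings run, 6 left APOE in tail fat uncalled, with limma adjusted p up to 0.292. All 8 fits without 1 library also left it uncalled (0.0655 to 0.397). The remaining settings placed it past the threshold. Its limma adjusted p was 0.0315 when libraries were centred on the median gene, 0.0071 in a fit of all 32 libraries and 0.00305 with weights for each library. Those settings called 699, 2014 and 2839 of all 11185 genes, against 78 in the main fit. Macrophages are a known source of APOE in fat. Summed macrophage markers were 52.2, 53.3, 21.7 and 41.0 TPM in CON and 89.3, 46.0, 34.0 and 9.54 TPM in SA, and summed adipocyte markers (8 of 8) ran from 11220 to 75330 TPM and from 10930 to 60970 TPM. Both overlapped between the diets, and their part in the APOE values was not tested. CON library 2 and SA library 1 carried the highest SELENOP of their groups, and without them the APOE difference was 1.21 (limma adjusted p = 0.0789).

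The other genes of tail fat overlapped between the diets. APOA1 was at 3.16, 13.58, 8.32 and 35.08 TPM in CON and 27.66, 18.75, 13.03 and 14.47 TPM in SA (0.65, limma adjusted p = 0.655). LCAT was at 65.64, 104.23, 43.58 and 67.26 TPM in CON and 109.83, 98.13, 84.82 and 49.84 TPM in SA (0.29, adjusted p = 0.811). MTTP, below the filter, was at 0.00, 1.35, 0.00 and 1.06 TPM in CON and at most 0.04 TPM in SA, with both values over 1 TPM in CON libraries 2 and 4.

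**Figure D5:**
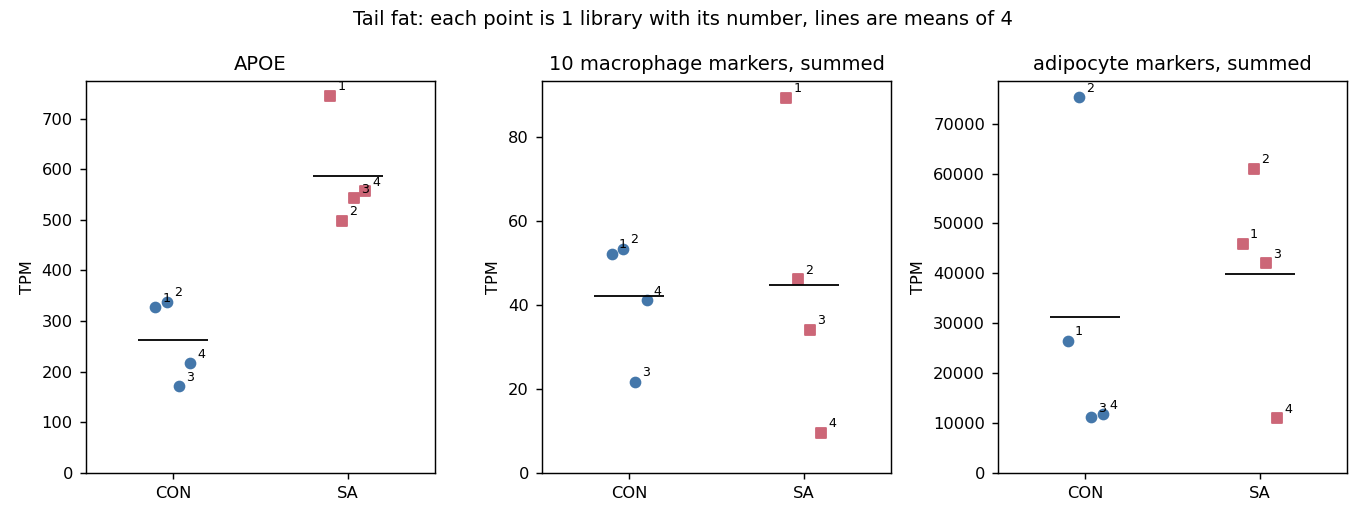
TPM in tail fat of APOE, of 10 macrophage markers summed and of 8 adipocyte markers summed, with 1 numbered point per library, 4 per diet, lines at the means, and axes that start at 0. The SA points of APOE (498.69 to 745.54) lie above the CON points (171.37 to 337.98), and the macrophage and adipocyte sums overlap between the diets.

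In libraries labelled hypothalamus and pituitary, 3 of the 7 genes passed the filter and none was called. No gene at all was called there by limma: 0% of 14126 and 0% of 14472 genes, with 493 and 218 at an unadjusted p under 0.05. A fit of all 32 libraries called 3 and 4 genes, and weights for each library called 165 in the pituitary-labelled ones. APOE was steady in the hypothalamus-labelled libraries, from 512.54 to 571.66 TPM in CON and 513.44 to 602.28 TPM in SA, with a difference of −0.01 and a 95% interval of −0.22 to 0.21. That interval is the narrowest for any of the 7 genes in a diet comparison. APOA1 (0.01) and LCAT (−0.10) overlapped there too. In the pituitary-labelled libraries APOE ran from 760.34 to 909.43 TPM in CON and from 615.36 to 840.38 TPM in SA (−0.18), LCAT differed by −0.12, and APOA1, from 81.76 to 139.98 TPM in CON, was at 123.42, 127.15, 137.03 and 203.05 TPM in SA (0.35, adjusted p = 0.747).

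Whether the diet difference itself varied with tissue was tested over all 32 libraries. The interaction was called for 5 of the 7 genes, against 27% of 16360 genes tested: MTTP (limma adjusted p = 1.80e-09), APOB (0.00229), APOA1 (0.00969), APOE (0.0188) and LCAT (0.0486). It was not called for APOH (0.0674) or APOC3 (0.739). MTTP and APOB passed the filter in liver alone and read at most 2.40 TPM elsewhere, where a fall as large as in liver could not show. Their interaction calls therefore restate the liver difference. The MTTP call held under all 6 other settings run. The APOB call held under 2 of the 6 and was lost at a pseudocount of 0.1 (0.127), when median centred (0.118), after quantile normalization (0.403) and with mitochondrial and ribosomal RNA removed (0.466). The APOA1 call was lost under the last pair (0.347 and 0.431), the APOE call after quantile normalization (0.166), and the LCAT call under 5 of the 6 and in 27 of 32 fits that each left out 1 library. The APOH value rested on tail fat CON library 4, the library of high ALB: without it the adjusted p was 6.29e-06, and without tail fat CON library 2 it was 0.0443. APOH, too, passed the filter in liver alone. Outside liver and without tail fat CON library 4 it read at most 2.73 TPM, so the smaller of these p-values likewise restates the liver difference.

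Over the 32 libraries, the genes whose log2(TPM + 1) followed that of MTTP most closely, among 12938 genes at 1 TPM or more in 4 libraries, were SEBOX (Pearson r = 0.955), COL6A6 (0.940), HSD17B2 (0.934), INHBC (0.932) and LIPG (0.931). All 5 were highest in CON liver: INHBC averaged 23.8 TPM there and 0.67 TPM in SA liver, HSD17B2 22.2 and 1.45 TPM, and SEBOX 7.66 TPM against a listed 0. Since MTTP is high only in CON liver, that pattern follows from how the 5 were chosen. The other genes of the set followed less closely, with APOH at 0.787, APOB at 0.773, APOA1 at 0.737, APOC3 at 0.675, APOE at 0.653 and LCAT at 0.631. These values describe the 32 points, which share tissue and diet groups, and carry no test.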

How the data were processed

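RNA-seq of 32 libraries was deposited as 1 table of TPM, which the authors made within each library and rounded to 2 decimals; fastp, HISAT2 and RSEM were used per the submitters' processing notes. Versions, genome build and strand setting: not given in the sources used here. No scaling between libraries is stated. Columns summed to between 936939 and 987320. Groups came from the sample descriptions, and 8 columns of group means were not used. Replicate libraries correlated at r of 0.911 to 0.989 across genes on the log2(TPM + 1) scale, and none were identical.

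Tests used limma 3.58.1 in R 4.3.3 on log2(TPM + 1), for genes reaching 1 TPM in 4 or more of the libraries compared (mean trend, robust, two-sided, Benjamini-Hochberg over all genes tested, threshold 0.05). Each tissue's 8 libraries were fitted alone for diet, the 16 CON libraries together for tissue, and all 32 for the interaction of diet and tissue (an F-test). The scripts were tested on simulated data. Alternatives were a pseudocount of 0.1, no filter, quantile normalization, removal of mitochondrially encoded and ribosomal RNA rows, centring on the median gene or on hepatocyte markers, a replicate block, a joint fit, array weights and leaving out each library. The centring without 6 hepatocyte markers, the fit without a pair of tail fat libraries, the pathway counts under other scalings, and the block and left-out libraries for the interaction were added after seeing the data.

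Members, pathway lists and marker lists were chosen with earlier results of these data known. All members are named, with up to 4 genes per pathway list and direction of smallest adjusted p, and the 5 genes most correlated with MTTP. A RefSeq gene table of ARS-UI_Ramb_v3.0 served only for neighbouring genes, and no coordinates or sequences are given because the files' build is not named. Marker sums are sums of TPM over the markers of a list that have a row.
Results for some genes of the pathway lists are not reported here.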

Additional observations from a re-analysis of the deposited data

Results flagged for a closer look

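Each of the 7 genes was screened in each group of 4 libraries for a value far from the other 3 relative to the group's range. Of 56 groups, 53 had any range and 9 had such a value. For continuous values chance gives about 1 in 20 groups. That rate does not hold where 3 of 4 libraries were listed at 0, as in several of the flagged groups. In liver, CON library 1 held MTTP at 53.33 TPM, above 29.68 to 32.50 TPM in the others, and SA library 2 held APOH at 277.32 TPM, below 529.89 to 578.97 TPM. SA library 2 of liver was also the lowest of its group for APOA1, APOC3, APOE, APOB and LCAT. Tail fat CON library 4 held APOC3 at 22.22 TPM and APOH at 26.91 TPM, where the other 3 held at most 0.23 and 0.11 TPM. In the pituitary-labelled libraries APOA1 was at 203.05 TPM in SA library 4, the library that also stood apart from its group in summed choroid plexus markers (3110 TPM against 50.7 to 70.4 TPM), neuron markers (717.5 against 1853 to 3172 TPM) and mitochondrial share (67.5% against 36.4% to 50.6%); their part in the APOA1 value was not tested. In the same tissue CON library 2 held APOC3 at 4.31 TPM and APOB at 0.04 TPM where the other 3 were listed at 0. The remaining values are near 0: APOB at 0.02 TPM in tail fat SA library 3 and APOC3 at 0.15 TPM in hypothalamus-labelled SA library 3.

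The diet difference varied with tissue by the limma interaction test over 32 libraries for MTTP (adjusted p = 1.80e-09), APOB (0.00229), APOA1 (0.00969), APOE (0.0188) and LCAT (0.0486). MTTP, APOB, APOA1 and LCAT were lower in SA in liver. In the other tissues MTTP and APOB were below the filter and not tested, and too near 0 for a fall as large as in liver to show. APOA1 and LCAT were tested there and not called. APOE was at −0.46 in liver (0.05 without SA library 2) and 1.19 in tail fat, neither called by its own tissue's fit.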

How the results depend on the processing

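The 7 liver-against-tissue calls in CON held under every setting run, though MTTP, APOB and APOC3 passed the main filter only through liver. For diet in liver, 5 genes were called under the other pseudocount, no filter, joint fit, array weights and replicate block and in all 8 fits without 1 library (5 to 5), against 2 after quantile normalization, 3 with mitochondrial and ribosomal RNA removed (2 lower, 1 higher) and 2 when median centred. Centring on hepatocyte markers adds 2.74 to every gene (10496 of 11582 called higher, median 1.90), so any gene above −2.74 turns positive: APOB was 1.28, APOA1 1.06, APOE 2.28 and LCAT 1.60, and without 6 of those markers (7625 called higher, median 1.22) 0.60, 0.38, 1.60 and 0.92. MTTP was called lower under every setting run, from −5.34 to −1.61. All genes called in liver numbered 7445, against 4326 (quantile; 2440 lower, 1886 higher), 3448 (RNA removed) and 4235 (median centred). In tail fat 0 of 3 genes were called (0 to 0 without 1 library), against 1 when median centred, 1 in the joint fit and 1 with array weights, each time APOE. Tail fat calls over all genes were 78 (47 lower, 31 higher), 0 without a filter, 415 (quantile), 1149 (RNA removed; 987 lower, 162 higher), 699 (median centred; 224 lower, 475 higher), 413 (replicate block), 2014 (joint fit), 2839 (array weights), 398 without the pair of high SELENOP, and 10, 314 and 20 without CON library 1, 2 or 4 and 47, 8 and 20 without SA library 1, 3 or 4. The interaction was called for 5 genes, against 3 at pseudocount 0.1, 1 (quantile), 2 (RNA removed) and 4 to 6 without 1 library. Over all genes the interaction calls numbered 4414, against 4888 (pseudocount 0.1), 4920 (quantile), 5314 (RNA removed) and 3634 to 6214 without 1 library. The cause of these changes was not tested.

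Equal library numbers across diets mark different sheep, and the correlations of their deviations ran from −0.342 to 0.289 for diet and from −0.107 to 0.149 between tissues, so the numbers were not taken to pair libraries. The replicate block, which groups libraries by number, left 5 genes called in liver (MTTP adjusted p = 0.00123, limma) and 0 in tail fat. It left 7 in each tissue comparison and 4 in the interaction, where LCAT had a limma adjusted p = 0.0587. Across diets that block joins different sheep, so its counts for diet and for the interaction are no check on pairing by sheep. A sheep shared between tissues was not modelled in the interaction. The depth is unknown, so values near 0 TPM cannot be given a counting limit.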
